A study of Sus scrofa with 24 samples.

Results

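In all, 9 genes of the fatty acid oxidation program were followed in the hippocampus of neonatal piglets, out of the 38882 genes listed in the count tables. The 9 genes were chosen by name. They are the nuclear receptors PPARA and PPARD, the carnitine palmitoyltransferases CPT1A, CPT1C and CPT2, the mitochondrial β-oxidation enzymes ACADM, ACADVL and HADHA, and the pyruvate dehydrogenase kinase PDK4. A differentially expressed gene (DEG) was defined here by an FDR (Benjamini-Hochberg adjusted p) under 0.4. Of the 8 genes expressed highly enough to be tested, the edgeR fit reported here and limma voom called 0 between sizes or diets. DESeq2 called PDK4 for diet and PPARD for size on HF formula. Some other edgeR settings also called PPARD on HF formula, among them 8 of 24 fits with 1 library left out. PPARD had the smallest p for size, with more RNA in SGA piglets than in their AGA littermates in 9 of 12 pairs. PDK4 had the smallest p for diet, with a lower fitted level on HF formula, but the fitted value depended on the terms in the model and on single libraries.

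Peroxisome proliferator-activated receptors (PPARs) are transcription factors that bind fatty acids and their derivatives, pair with a retinoid X receptor (RXR), and switch on genes for taking up and burning fat. Long-chain fatty acids enter the mitochondrion through the carnitine shuttle, in which a CPT1 enzyme on the outer membrane attaches carnitine and CPT2 on the inner membrane removes it. The β-oxidation enzymes then shorten the chain, and PDK4, a well-known PPAR target in muscle and liver, slows the use of glucose by inhibiting pyruvate dehydrogenase. The brain burns little fat compared to those tissues, mostly in astrocytes, while CPT1C is a neuronal family member that sits in the endoplasmic reticulum and has little transferase activity.

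The 24 piglets were PIC Camborough by PIC 359 crosses killed at 14 days of age, with 6 in each of the AGA CON, SGA CON, AGA HF and SGA HF groups. Small for gestational age (SGA) and appropriate for gestational age (AGA) piglets were defined by birth weight, and each SGA piglet was paired with an AGA littermate of the same sex. Both littermates received the same formula, so that the 12 litters fell into 6 on control (CON) formula, with its fat as triglyceride oils, and 6 on hydrolyzed fat (HF) formula, in which soy free fatty acids, monoacylglycerol palmitate, lecithin and cholesterol took the place of part of the oil. Each diet had 3 litters in cohort 1 and 3 in cohort 2. Sex was not balanced over cohorts, with more male litters in cohort 1 and more female litters in cohort 2. SGA piglets were small by natural birth weight rather than by an induced growth restriction, all piglets were formula-fed, and no sow-reared group was analysed here.

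Each library held 6017336 to 9284355 reads on the listed genes, so that 3 reads corresponded to 0.319 to 0.494 CPM (read counts scaled by library size with TMM normalization). The median correlation of a library with the other libraries over tested genes was between 0.965 and 0.978. Single libraries still weighed on the edgeR fits. Without SGA HF replicate 3 the number of size DEGs went from 78 to 717. Without AGA CON replicate 2 the number of diet DEGs went from 26 to 415. Neuronal, astrocyte and oligodendrocyte markers were abundant in all 24 libraries, but their summed levels varied. They were 4109 to 10469 CPM for neurons, 10204 to 14795 CPM for astrocytes and 11444 to 24930 CPM for oligodendrocytes. The lowest neuronal sum was in an AGA CON library, in a group with a median of 7968 CPM. Choroid plexus markers were low at 10.1 to 156 CPM. The highest choroid plexus sum was in an SGA CON library, in a group with a median of 40.2 CPM. The medians of AGA CON, AGA HF and SGA HF libraries were 17.97, 18.9 and 19.1 CPM. The RNA came from whole tissue, in which fewer cells of a type and less RNA per cell cannot be told apart.

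In the Sscrofa10.2 annotation used for counting, PPARA (gene 397239) lies on chromosome 5 at 470097 to 488440 and PPARD (gene 397297) on chromosome 7 at 36141634 to 36215255. CPT1A (399527) is on chromosome 2 at 2844854 to 2874141, CPT1C (100519258) on chromosome 6 at 50462134 to 50476782, and CPT2 (100519491) on chromosome 6 at 146702081 to 146774794. ACADM (397104) is on chromosome 6 at 127513877 to 127547942, ACADVL (100520636) on chromosome 3 at 139851936 to 139857148, HADHA (397012) on chromosome 3 at 119690643 to 119782862, and PDK4 (100286778) on chromosome 9 at 82625083 to 82638263. Reads were counted over exons only, on the strand of the gene, and no exon of the 9 genes overlapped that of another annotated gene. The exon models held 1411 bases for PPARA and 1830 to 3548 bases for the others.

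Levels between genes were compared as CPM per kb of exon model. CPT1C was the most abundant of the 9 at 57.5 ± 6.22 CPM per kb (mean ± SD, n = 24), above HADHA at 48.2 ± 4.00 in 21 of 24 libraries. PPARD followed at 33.6 ± 3.67, below the lowest HADHA value in every library. CPT1A at 22.9 ± 2.87 and ACADVL at 22.6 ± 2.52 did not differ beyond their spread, with CPT1A the higher in 11 of 24 libraries. ACADM stood at 11.8 ± 2.54, below ACADVL in 23 of 24 libraries. PDK4 at 5.35 ± 1.16 and CPT2 at 4.56 ± 0.767 overlapped, with PDK4 the higher in 17 of 24, and PPARA was lowest at 0.249 ± 0.171 CPM per kb. The neuronal CPT1C therefore exceeded CPT1A, the form that serves mitochondrial oxidation, with a ratio of levels per kb of 2.54 ± 0.391 that ranged from 1.60 to 3.00 over the 24 libraries.

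**Figure D1:**
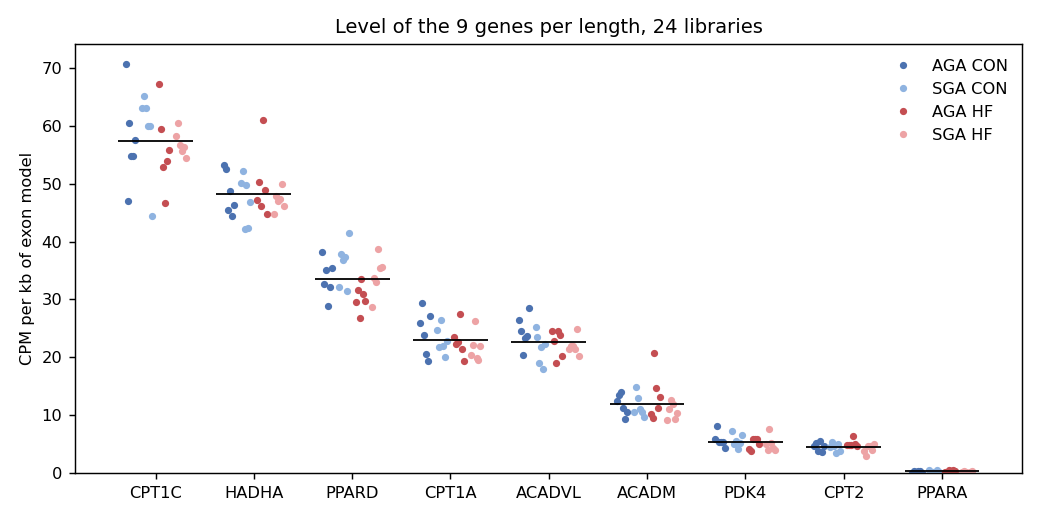
Level of each gene in CPM per kb of exon model (y axis, linear) for the 9 genes (x axis, ordered by mean), 1 point per library coloured by group, with a black line at the mean of 24 libraries. CPT1C and HADHA lie highest with means of 57.5 and 48.2, PPARA lies at 0.249, and the 4 groups overlap for every gene.

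Libraries were most alike for HADHA, whose CPM had a coefficient of variation of 8.31% over the 24 libraries, lower than that of all but 4.29% of the 16326 genes tested. CPT1C, PPARD, ACADVL and CPT1A varied by 10.8 to 12.5%, and CPT2 by 16.8%. Of the 8 genes that passed the expression filter described next, ACADM and PDK4 varied most, by 21.5 and 21.7%, against a median of 19.6% over all genes tested. The genes differed in abundance. HADHA had a higher mean CPM than 89.8% of the genes tested, ACADM than 59.6% and PDK4 than 56.8%. Variation was not compared among genes of like abundance.

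Of the 9 genes, 8 passed the expression filter of at least 1 CPM in at least 3 libraries, and PPARA did not. With edgeR's quasi-likelihood test, 0 of the 8 were DEGs in the main effect of size (SGA minus AGA), against 0.478% of all genes tested, and 1 of 8 had an unadjusted p under 0.05, against 10.6% of all genes. For the main effect of diet (HF minus CON), 0 of 8 were DEGs against 0.159% of all genes, and 1 of 8 had an unadjusted p under 0.05 against 7.1%. For the size by diet interaction, 0 of 8 were DEGs against 0.049%, and 1 of 8 had an unadjusted p under 0.05 against 4.01%. Within each formula and each size class edgeR again gave 0 DEGs among the 8. The shares over all genes were 0.129% for size on CON, 0.288% for size on HF, 0.0674% for diet in AGA and 0.0919% for diet in SGA piglets. At an unadjusted p under 0.05 there were 0 of 8 for size on CON (6.59% of all genes), 1 for size on HF (8.02%), 2 for diet in AGA (6.09%) and 0 for diet in SGA piglets (5.16%). With the same terms, limma voom also gave 0 DEGs among the 8 in all 7 contrasts, while DESeq2 gave 1 for diet (PDK4, DESeq2 FDR = 0.389) and 1 for size on HF (PPARD, DESeq2 FDR = 0.248). The median log2 fold change of the 8 genes was -0.02 for size, -0.02 for diet and 0.06 for the interaction, and the medians over all genes tested were between -0.0023 and 0.0029.

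**Figure D2:**
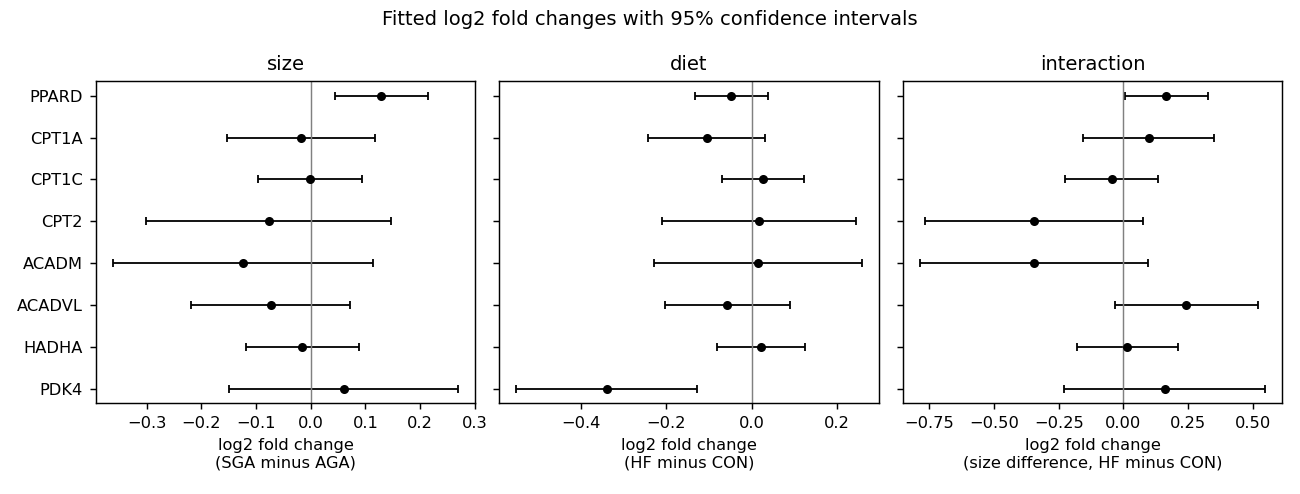
Fitted log2 fold change (x axis) of the 8 genes tested (y axis) for size, diet and the size by diet interaction, with bars for the 95% confidence interval of edgeR's quasi-likelihood fit on 24 libraries. The interval leaves out 0 for PPARD in the size and interaction panels and for PDK4 in the diet panel, before adjustment for multiple tests.

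The receptors were PPARA and PPARD. PPARA, the main switch of fatty acid oxidation in liver, had few reads over its exon model of 1411 bases, 64 in all. Whether its transcript extends beyond this model, where reads were not counted, was not tested. It had 0 reads in 4 libraries and at most 7 in any library, and 16 of 24 libraries held 3 reads or fewer. No fold change between groups is given for it, since its group means of 0.267 to 0.520 CPM lie around the level of 3 reads.

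PPARD, the receptor form found across brain cell types, was expressed in every library. Its lowest, median and highest values were 102, 120 and 136 CPM in AGA CON piglets and 112, 131 and 147 CPM in SGA CON piglets. On HF formula they were 94.7, 107.5 and 119 CPM in AGA piglets and 102, 123 and 138 CPM in SGA piglets. The groups overlapped, and 4 of 6 SGA HF libraries lay above the highest AGA HF library while 1 of 6 SGA CON libraries lay above the highest AGA CON library.

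The fitted PPARD log2 fold change for size was 0.13 (SE 0.041, edgeR unadjusted p = 0.00461, FDR = 0.528). Within HF litters it was 0.21 (SE 0.057, edgeR unadjusted p = 0.0011, FDR = 0.421), where 0.288% of all genes tested were DEGs. Within CON litters it was 0.05 (SE 0.056, edgeR unadjusted p = 0.419, FDR = 0.924). The interaction, which tests the difference between these, was 0.17 (SE 0.077, edgeR unadjusted p = 0.0406, FDR = 0.714), but with litter as a block it was 0.07 (edgeR unadjusted p = 0.505, FDR = 0.907). The size difference is thus not shown to differ between formulas. The HF value lay between 0.19 and 0.24 when any 1 library was left out, and its FDR came under 0.4 in 8 of these 24 fits, down to 0.195 without SGA HF replicate 3.

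Compared by littermates, SGA piglets had a PPARD log2 CPM higher by 0.14 ± 0.17 (mean ± SD, 12 pairs; exact sign-flip test, two-sided, p = 0.0249), in 9 of 12 pairs. It was higher in 5 of 6 HF pairs (mean 0.17) and 4 of 6 CON pairs (mean 0.10), and the exact permutation test of the difference between formulas gave p = 0.522. Within cohort 1 the mean was 0.07 with 4 of 6 pairs higher, and within cohort 2 it was 0.21 with 5 of 6 pairs higher. These p-values are unadjusted. In all, 40 exact tests were run over the 8 genes for size, diet, interaction, cohort and sex. Of these, 2 had p under 0.05, and 2 would be expected by chance. The 2 were the PPARD size test and the cohort difference of CPT1C given with that gene.

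**Figure D3:**
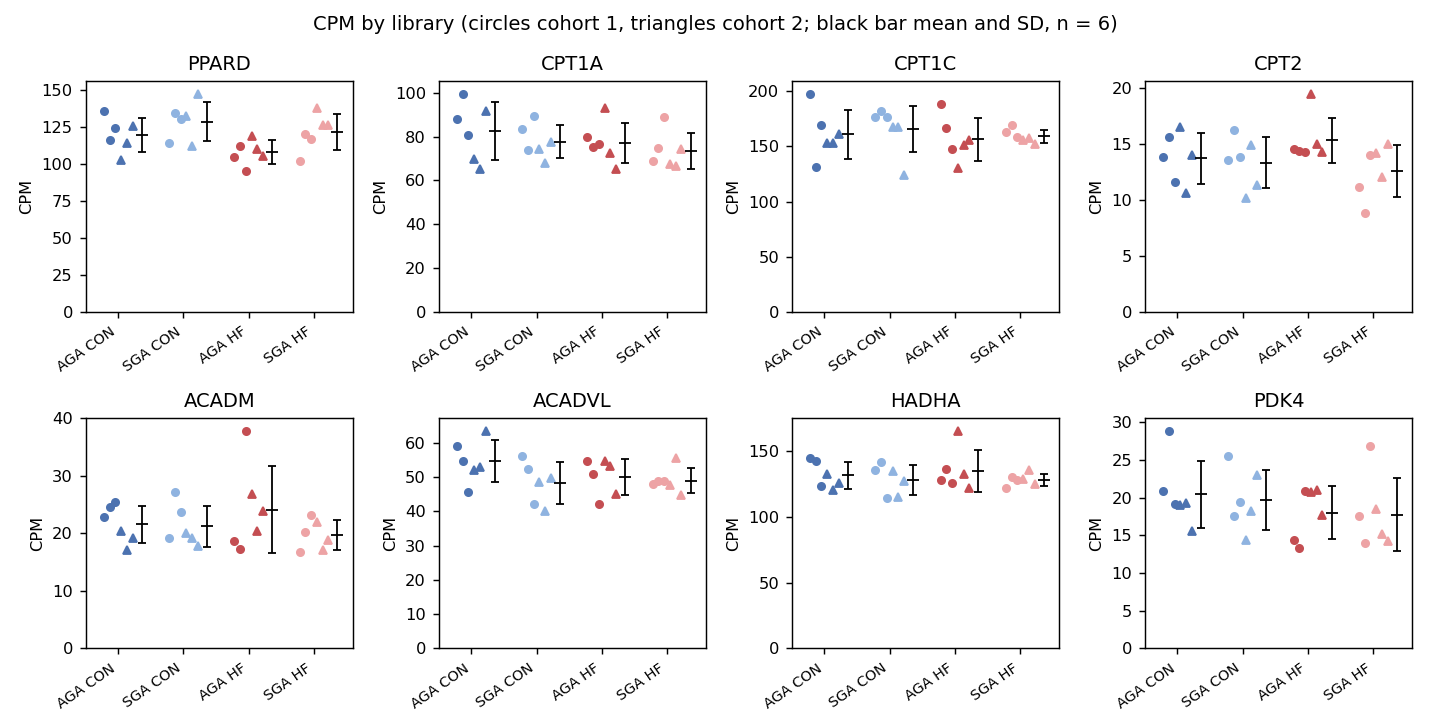
CPM of the 8 genes that passed the filter (y axes, linear from 0) in the 6 libraries of each group (x axis), with circles for cohort 1, triangles for cohort 2, and a black bar for the group mean and SD. PPARD means are 120 and 128 CPM in AGA CON and SGA CON piglets and 108 and 121 CPM in AGA HF and SGA HF piglets, and the groups overlap for every gene.

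By diet, the PPARD log2 fold change was -0.05 (SE 0.041, edgeR unadjusted p = 0.254, FDR = 0.879), and over 6 against 6 litter means it was -0.11 (exact permutation test, two-sided, p = 0.0931). The litter difference was -0.22 within cohort 1 and -0.01 within cohort 2. Among AGA piglets alone the fitted value was -0.13 (edgeR unadjusted p = 0.0308, FDR = 0.684), in a contrast where 6.09% of all genes tested had an unadjusted p under 0.05.

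Cell type markers were also compared by size, and none was a DEG by edgeR. Of 6 neuronal markers 4 had a higher fitted level in SGA piglets, 1 with an unadjusted p under 0.05. Of 7 astrocyte markers 5 had a lower one, 0 with such a p. All 6 oligodendrocyte markers had a lower fitted level in SGA piglets (median log2 fold change -0.17). An unadjusted p under 0.05 was found for 1 of them (CNP), and for 10.6% of all genes tested. The summed level of oligodendrocyte markers was 17701 to 23186 CPM for AGA CON, 12361 to 18984 for SGA CON, 13608 to 24930 for AGA HF, and 11444 to 22478 for SGA HF libraries. The part of this difference in the size results of the 9 genes was not tested.

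In the carnitine shuttle, CPT1A makes the entry step into mitochondrial oxidation. Its lowest, median and highest values were 65.4, 84.3 and 99.4 CPM for AGA CON, 68.0, 75.8 and 89.5 CPM for SGA CON, 65.3, 76.1 and 93.2 CPM for AGA HF, and 66.4, 71.6 and 88.9 CPM for SGA HF piglets. The ranges of the 4 groups overlapped over most of their length. The log2 fold change was -0.02 for size (95% confidence interval -0.15 to 0.12) and -0.11 for diet (-0.24 to 0.03). SGA piglets were lower in 7 of 12 pairs.

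CPT1C, the neuronal form, had group means of 161 ± 21.9 CPM for AGA CON, 166 ± 21.1 for SGA CON, 157 ± 19.5 for AGA HF, and 159 ± 5.87 for SGA HF piglets (SD, n = 6 each). Its log2 fold change was 0.00 for size (95% confidence interval -0.10 to 0.09) and 0.03 for diet (-0.07 to 0.12). These intervals come from a fit without a term for litter. Compared by littermates, the size difference was 0.04 ± 0.22 (mean ± SD, 12 pairs). Over 6 against 6 litter means the diet difference was -0.04 (exact permutation test, two-sided, p = 0.565). Litters of cohort 2 were lower than those of cohort 1 by 0.14 on the log2 scale (exact permutation test over 6 against 6 litters, two-sided, unadjusted p = 0.0303). CPT1A had a like cohort difference of -0.15 (exact permutation test, p = 0.0563). Each diet had equal numbers of litters from both cohorts, but cohort 1 had more male litters than cohort 2. Male litters had a CPT1C level higher than female litters by 0.08 (exact permutation test, two-sided, unadjusted p = 0.258). The part of sex in the cohort differences was not tested.

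CPT2, which releases the acyl chain inside the mitochondrion, was the least abundant enzyme. Its lowest, median and highest values were 10.7, 13.9 and 16.6 CPM in AGA CON and 10.1, 13.7 and 16.2 CPM in SGA CON piglets, which is nearly the same span. On HF formula they were 14.3, 14.5 and 19.5 CPM in AGA piglets and 8.87, 13.0 and 15.0 CPM in SGA piglets. Here 5 of 6 SGA HF libraries lay below the lowest AGA HF library, and SGA piglets were lower in 5 of 6 HF pairs (mean -0.29) against 3 of 6 CON pairs (mean -0.04). None of this passed a test, with a fitted size log2 fold change of -0.25 on HF (edgeR unadjusted p = 0.107, FDR = 0.799) and an interaction of -0.35 (SE 0.20, edgeR unadjusted p = 0.105, FDR = 0.798). The exact permutation test of the pair differences between formulas gave p = 0.234.

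Of the β-oxidation enzymes, ACADM starts the breakdown of medium chains. Its lowest, median and highest values were 17.04, 21.6 and 25.5 CPM for AGA CON, 17.7, 19.7 and 27.2 CPM for SGA CON, 17.3, 22.2 and 37.8 CPM for AGA HF, and 16.7, 19.5 and 23.2 CPM for SGA HF piglets. The groups overlapped, with AGA HF replicate 3 highest of the 24 libraries. SGA piglets were lower in 9 of 12 pairs by a mean of -0.14 log2 units (SD 0.26; exact sign-flip test, p = 0.0845). The fitted size value within HF litters was -0.30 (SE 0.16, edgeR unadjusted p = 0.0703, FDR = 0.762), and with litter as a block it was -0.26 (edgeR unadjusted p = 0.0234, FDR = 0.535). Without AGA HF replicate 3 the fitted value was -0.10 (edgeR unadjusted p = 0.447, FDR = 0.923).

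ACADVL does the same for very long chains. Its lowest, median and highest values were 45.6, 53.8 and 63.5 CPM in AGA CON and 40.2, 49.1 and 56.2 CPM in SGA CON piglets. In the HF groups they were 42.2, 52.1 and 54.7 CPM in AGA and 44.9, 48.4 and 55.6 CPM in SGA piglets. Although the groups overlapped, the SGA piglet was the lower of the pair in 6 of 6 CON litters and in 10 of 12 litters in all.

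The mean ACADVL difference over the 12 pairs was -0.10 ± 0.17 (SD; exact sign-flip test, two-sided, p = 0.0532), and -0.18 within CON pairs. The fitted size value within CON litters was -0.20 (SE 0.096, edgeR unadjusted p = 0.0537, FDR = 0.743), in a contrast where 6.59% of genes had an unadjusted p under 0.05 and 0.129% were DEGs. With litter as a block it was -0.18 (edgeR unadjusted p = 0.0265, FDR = 0.552). The interaction was 0.24 (SE 0.13, edgeR unadjusted p = 0.0794, FDR = 0.773), and the exact permutation test between formulas gave p = 0.119.

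**Figure D4:**
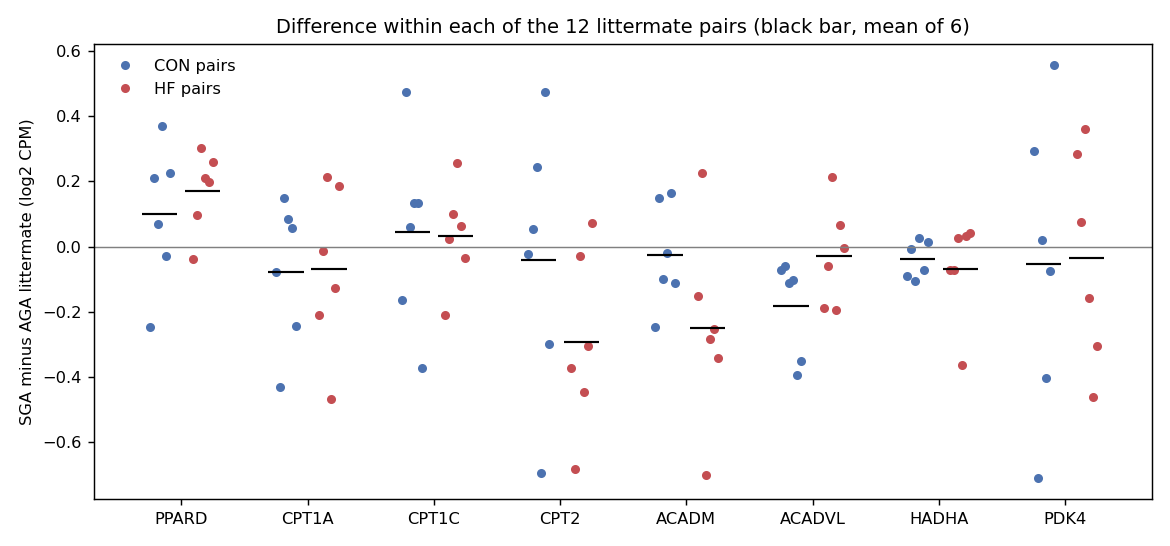
SGA minus AGA difference in log2 CPM (y axis) within each of the 12 littermate pairs for the 8 genes (x axis), blue for 6 CON pairs and red for 6 HF pairs, with black lines at the means. PPARD lies above 0 in 9 of 12 pairs and ACADVL below 0 in 10 of 12, while PDK4 splits 6 to 6 with the widest scatter.

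HADHA, the α-subunit of the mitochondrial trifunctional protein that carries out the later steps on long chains, was the steadiest of the 9. Group means were 132 ± 10.1 CPM for AGA CON, 128 ± 11.4 for SGA CON, 135 ± 15.8 for AGA HF, and 128 ± 4.67 for SGA HF piglets (SD, n = 6 each). The log2 fold change was -0.02 for size (95% confidence interval -0.12 to 0.09) and 0.02 for diet (-0.08 to 0.12). Its partner subunit HADHB was measured at a like level, with a HADHA to HADHB ratio per kb of 1.09 ± 0.146 over 24 libraries. In the fit HADHB had a size value of -0.12 (SE 0.054, edgeR unadjusted p = 0.0405, FDR = 0.714), and whether it differed from that of HADHA was not tested.

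PDK4, the kinase that turns cells from glucose toward fat, was a minor kinase in this tissue. PDK2 exceeded it by a ratio per kb of 34.7 ± 7.16 (SD, n = 24). The lowest, median and highest PDK4 values were 15.5, 19.2 and 28.9 CPM for AGA CON, 14.4, 18.8 and 25.6 CPM for SGA CON, 13.3, 19.2 and 21.1 CPM for AGA HF, and 14.0, 16.4 and 26.9 CPM for SGA HF piglets. All 4 groups overlapped and the AGA medians on both formulas were nearly equal, with the highest values in AGA CON replicate 2 and SGA HF replicate 3.

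The fitted PDK4 log2 fold change for diet was -0.34 (SE 0.10, edgeR unadjusted p = 0.00306, FDR = 0.49), with -0.42 in AGA piglets (edgeR unadjusted p = 0.007, FDR = 0.564) and -0.26 in SGA piglets (edgeR unadjusted p = 0.0693, FDR = 0.762). Without the 5 surrogate variables it was -0.17 (edgeR unadjusted p = 0.153, FDR = 0.909), and with counts summed per litter it was -0.18 (edgeR unadjusted p = 0.163, FDR = 0.999). Over 6 against 6 litter means the difference was -0.17 (exact permutation test, two-sided, p = 0.232). By litter it was -0.31 within cohort 1 and -0.03 within cohort 2.

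Single libraries also decided the fitted PDK4 value. The diet value was -0.06 without AGA HF replicate 2, -0.09 without AGA CON replicate 2, -0.19 without AGA HF replicate 6 and -0.22 without SGA HF replicate 3, each with an edgeR unadjusted p above 0.05. For size, PDK4 was higher in SGA piglets in 6 of 12 pairs, with a fitted log2 fold change of 0.06 (95% confidence interval -0.15 to 0.27).

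**Figure D5:**
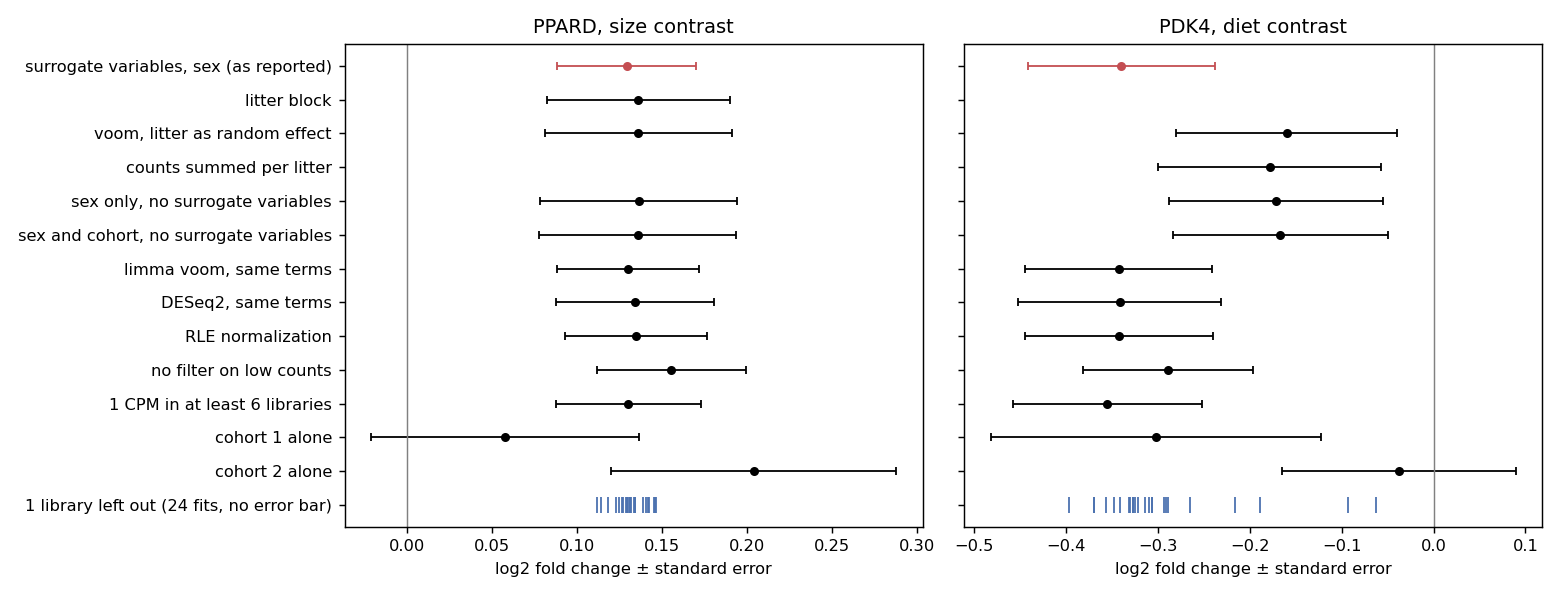
Log2 fold change with its standard error (x axes) of PPARD for size and PDK4 for diet under each model (y axis), with blue ticks for the 24 fits that leave out 1 library. The PPARD value lies between 0.06 and 0.20 under all of them, while the PDK4 value goes from -0.34 with surrogate variables to -0.17 without them and -0.04 in cohort 2 alone (diet has no value under a litter block, and size none under counts summed per litter).

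Fitted levels of cell type markers were also compared by diet. None was a DEG by edgeR, and 7.1% of all genes tested had an unadjusted p under 0.05 in this contrast. All 6 microglial markers had a lower fitted level on HF formula (median log2 fold change -0.17, 0 with an unadjusted p under 0.05), with summed levels of 57.2 to 193 CPM on CON and 55.6 to 150 CPM on HF formula. Of the 6 markers of meninges and pericytes, 5 were higher on HF formula, 2 of them with an unadjusted p under 0.05 (DCN and COL1A2), with summed levels of 108 to 200 CPM on CON and 103 to 249 CPM on HF formula. All 3 blood markers were higher on HF formula (median log2 fold change 0.34, 0 with an unadjusted p under 0.05), with summed levels of 95.1 to 402 CPM on CON and 178 to 386 CPM on HF formula. Of 5 endothelial markers, 4 were lower (FLT1 with an unadjusted p under 0.05), with summed levels of 165 to 304 CPM on CON and 158 to 247 CPM on HF formula. Among oligodendrocyte markers 5 of 6 were lower (MBP with an unadjusted p under 0.05), and among astrocyte markers 5 of 7 (GFAP with an unadjusted p under 0.05). Of 6 neuronal markers 4 were higher, and of 3 choroid plexus markers 2 were lower, with 0 at an unadjusted p under 0.05 in either list. The part of these markers in the diet results was not tested.

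Beyond these 9, 10 lists of related genes held 102 genes that passed the filter, of 119 listed. In none of the 7 contrasts was any of the 102 a DEG by edgeR. By unadjusted p under 0.05 there were 14 in the size contrast (6 higher and 8 lower in SGA piglets, 13.7% against 10.6% of all genes), 7 in the diet contrast (6.86% against 7.1%) and 5 in the interaction (4.9% against 4.01%), so that the shares lay near those of all genes. The genes named from these lists had an unadjusted p under 0.05, and the values given with them are the standard error and the FDR of edgeR's quasi-likelihood fit.

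Among the other receptors and coregulators, PPARG was near the detection limit at a mean of 0.734 CPM, while the RXR partners RXRB and RXRG were expressed at 101 and 57.6 CPM. All 10 genes of this list had a lower fitted level on HF formula (median log2 fold change -0.08, against 0.0020 over all genes tested), none with p under 0.05. Their summed level, without the fit, was not lower on HF formula in both sizes. Its medians were 882 CPM in AGA CON and 842 CPM in AGA HF piglets, and 873 CPM in SGA CON and 892 CPM in SGA HF piglets. NCOR1, a corepressor, had a size value of 0.12 (SE 0.056, FDR = 0.725).

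Of 15 other PPAR targets that matched, 8 passed the filter and 7 stayed below it, among them CD36, FABP3 and UCP3, and CIDEA had 0 reads in all libraries. Of the 8 tested, UCP2, a mitochondrial uncoupling protein, had a diet value of 0.26 (SE 0.12, FDR = 0.716), and FGF21, a fasting hormone, a size value of -0.59 (SE 0.24, FDR = 0.66) at a mean level of 2.45 CPM. ANGPTL4 and CPT1B were at 5.63 and 12.0 CPM, and neither had a size or diet p under 0.05.

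In the mitochondrial β-oxidation list, 13 of 17 genes had a lower fitted level in SGA piglets (median log2 fold change -0.05, against -0.0023 over all genes tested). Of the 17, 4 had p under 0.05 (23.5%, against 10.6% of all genes in either direction). All 4 were lower, where 4.95% of all genes had such a p and a lower level. ACAA2, the thiolase that ends the cycle, had -0.19 (SE 0.075, FDR = 0.644), ECHS1, the short-chain hydratase, -0.26 (SE 0.12, FDR = 0.714), and HADHB the value given above. ACAD10, a less studied acyl-CoA dehydrogenase singled out after its value was seen because it completes the 4, had -0.23 (FDR = 0.724). By diet 7 were higher and 10 lower, none with p under 0.05. In the interaction ACADSB, which acts on branched short chains, had -0.28 (SE 0.12, FDR = 0.665) and NUDT19, a CoA diphosphatase, -0.53 (SE 0.25, FDR = 0.724).

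Peroxisomal oxidation shortens very long and branched chains. Of 15 genes tested, ACOX3, a branched-chain oxidase, had a size value of 0.19 (SE 0.069, FDR = 0.588), while DECR2, a dienoyl-CoA reductase, and PHYH, which starts phytanic acid breakdown, had -0.11 (SE 0.049, FDR = 0.695) and -0.29 (SE 0.14, FDR = 0.733). In the interaction, HSD17B4, the bifunctional enzyme of this pathway, had -0.29 (SE 0.083, FDR = 0.465) and ACOX3 -0.29 (SE 0.13, FDR = 0.696). None of the 15 had p under 0.05 for diet, with 8 higher and 7 lower.

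For uptake and activation of fatty acids, 13 genes were tested. FABP7, the astrocyte and progenitor fatty acid binding protein and the most abundant of the list at 715 CPM, had a diet value of -0.18 (SE 0.062, FDR = 0.585). SLC27A4, a fatty acid transporter, had a size value of -0.19 (SE 0.073, FDR = 0.642), and ACSL4, an acyl-CoA synthetase with a preference for arachidonic acid, 0.16 (SE 0.061, FDR = 0.642). Among 4 further carnitine shuttle genes, SLC22A5, the carnitine importer, had an interaction of -0.71 (SE 0.29, FDR = 0.666) at a mean of 3.96 CPM.

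A list for control of malonyl-CoA, the inhibitor of CPT1, held 7 genes tested. They were ACACA, ACACB and otherwise subunits of the kinase AMPK. ACACA had a diet value of -0.12 (SE 0.052, FDR = 0.684) and none of the 7 had a size p under 0.05. None of 6 ketone body genes had p under 0.05 for size, diet or interaction. Of 11 genes of pyruvate dehydrogenase and its control, PDK2 had a diet value of -0.11 (SE 0.046, FDR = 0.655) and PDPR, a phosphatase subunit, 0.53 (SE 0.21, FDR = 0.643) at 4.65 CPM.

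PDK4 is also induced by glucocorticoids and FOXO factors in other tissues, and 11 genes of that kind were tested. On HF formula 10 of 11 had a lower fitted level (median log2 fold change -0.07, against 0.0020 over all genes tested). The p was under 0.05 for PER1 (-0.22, SE 0.060, FDR = 0.428) and KLF9 (-0.45, SE 0.20, FDR = 0.683, mean 2.20 CPM). In SGA piglets PER1 had 0.16 (SE 0.060, FDR = 0.629), KLF9 0.48 (SE 0.20, FDR = 0.666) and DUSP1 0.23 (SE 0.11, FDR = 0.723), while 5 of 11 genes were lower. Of all genes tested, 7.1% had an unadjusted p under 0.05 for diet and 10.6% for size.

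Across the 24 libraries, with the 4 group means removed, HADHA and ACADVL varied together (Pearson r = 0.63). Of all genes with a symbol, 0.599% had a higher r with HADHA and 0.21% a higher r with ACADVL. No other pair of the 8 exceeded the r of 0.41 between CPT1A and HADHA, and CPT1C and PDK4 ran opposite (r = -0.44).

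The gene most like each was CHST12 for PPARD (r = 0.86), BOC for CPT1A (0.81), SLC9A5 for CPT1C (0.87) and TMEM229B for CPT2 (0.79). It was PITRM1 for ACADM (0.79), G6PC3 for ACADVL (0.72), COX7A1 for HADHA (0.75) and POT1 for PDK4 (0.78). These are the highest of 12361 values each over 24 libraries that come from 12 litters and differ in depth and cell makeup, and are given as a description.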

How the data were processed

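Hippocampal RNA from 24 piglets was sequenced from stranded libraries. The authors trimmed reads with Trimmomatic 0.33, aligned them to the pig genome Sscrofa10.2 with STAR 2.5.2a, and deposited raw read counts per Entrez gene from featureCounts (Subread 1.5.0), on exons and on the strand of the gene. Multimapped reads and RNA quality per library were not analysed here. The depth of 6017336 to 9284355 reads per library sets the counting precision of low genes.

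Gene symbols came from a name table, which matched 23036 of 38882 gene IDs. A blank gene entry, 0.613 to 1.62% of each library, was left out. Counts were TMM normalized, filtered to the 16326 genes that reached 1 CPM in 3 libraries or more, and fitted with edgeR 4.0.16 in R 4.3.3 (quasi-likelihood test, 4 groups, sex and 5 surrogate variables from sva 3.50.0). FDR was adjusted by Benjamini-Hochberg over 7 contrasts together, with a call at FDR p under 0.4. All adjusted and unadjusted p-values named edgeR, limma or DESeq2 come from models across all genes. CPM values and log2 CPM (prior count 2) were compared within littermate pairs by exact sign-flip tests and between litters by exact permutation tests. These tests enumerated every sign flip or split in Python 3.11.15 with NumPy 2.4.6. The smallest two-sided p these designs allow is 0.000488 over 12 pairs and 0.00216 over 6 against 6 litters.

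The pairs are littermates by the labels. Deviations from group means correlated at a mean r of 0.154 between littermates (0.0144 to 0.329, 12 pairs) against -0.0309 between piglets of other litters on the same diet (60 pairs). Alternatives were limma voom (limma 3.58.1), DESeq2 1.42.0, a litter block, other covariates, filters and normalization, each cohort alone, and each library left out. The 9 genes and the lists were chosen with earlier results of these data known. From the lists, up to 3 genes per list and contrast with the smallest unadjusted p under 0.05 are named for size, diet and interaction.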

Additional observations from a re-analysis of the deposited data

Results flagged for a closer look

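In 5 of 32 groups of 6 libraries (8 genes by 4 groups), the highest or lowest library lay farther from the others than Dixon's critical ratio of 0.625 allows. Chance gives such a library in about 1 of 20 groups. CPT1A was 88.9 CPM in SGA HF replicate 3, with the nearest library at 74.7 CPM. PDK4 in the same library was 26.9 CPM, with the nearest at 18.5 CPM. CPT1C was 124 CPM in SGA CON replicate 6, below the nearest at 168 CPM. CPT2 and HADHA were both high in AGA HF replicate 4, at 19.5 CPM (nearest 15.0) and 165 CPM (nearest 137). The cause was not tested.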

How the results depend on the processing

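Of the 8 genes tested, 0 were called for size, diet, interaction or the 4 pairwise contrasts with edgeR's quasi-likelihood test. Adjusting each contrast alone called 1 gene for size (PPARD, FDR = 0.247) and 1 in the pairwise contrasts (PPARD on HF, FDR = 0.268). DESeq2 called 1 for diet (PDK4) and 1 in the pairwise contrasts (PPARD on HF). RLE normalization and no filter on low counts each called 1 pairwise, again PPARD on HF (FDR = 0.394 and 0.378). Leaving out 1 library gave 0 to 1 calls for size, 0 to 2 in the pairwise contrasts, and 0 for diet and interaction. PPARD was called for size without AGA CON replicate 2 (FDR = 0.383), SGA HF replicate 3 (0.331), SGA CON replicate 4 (0.375) or SGA CON replicate 6 (0.338), its log2 value staying between 0.11 and 0.15. On HF it was called without AGA CON replicate 2 (0.202), AGA HF replicate 3 (0.376), SGA HF replicates 1, 2 and 3 (0.317, 0.386 and 0.195), or SGA CON replicates 2, 4 and 6 (0.397, 0.307 and 0.253), and for diet in AGA piglets without SGA HF replicate 3 (0.378).

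With litter as a block, which pairs the littermates, 0 of the 8 were called, and PPARD had a size value of 0.14 (edgeR unadjusted p = 0.0213, FDR = 0.527). The block changed no call of the 8. Over all genes the number of size DEGs was far less stable, with 78 in the fit reported, 420 with the litter block, 13 without surrogate variables, 210 by DESeq2, 53 by limma voom, 1200 with each contrast adjusted alone, 0 in each cohort alone, and 5 to 717 when 1 library was left out. Among 2000 values of the 8 genes under the alternatives, 219 had another sign and 19 passed an FDR p of 0.4, and no called value changed sign. Over all genes tested, the median standard error of a log2 value was 0.105 for size and 0.144 for size on HF formula. For the 8 genes it went from 0.041 (PPARD) to 0.115 (ACADM) for size. On HF formula it went from 0.057 (PPARD) to 0.156 (ACADM). These errors limit what could be detected.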

Other observations

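Split by the sex of the pair, a split made after the values were seen and not tested, PPARD was higher in the SGA piglet in 6 of 6 female pairs, by a mean log2 difference of 0.23 ± 0.09 (SD; 0.10 to 0.37). In male pairs it was higher in 3 of 6, with a mean of 0.04 ± 0.20 (-0.25 to 0.30). PDK4 was higher in the SGA piglet in 4 of 6 male pairs (mean 0.12) and 2 of 6 female pairs (mean -0.21).

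By cohort, PDK4 was higher in the SGA piglet in 5 of 6 pairs of cohort 1 (mean 0.05) and 1 of 6 pairs of cohort 2 (mean -0.14), and whether these differ was not tested. Male pairs were more frequent in cohort 1 and female pairs in cohort 2. The splits by sex and by cohort therefore overlap and cannot be fully told apart. ACADVL was lower in the SGA piglet in 5 of 6 pairs of each cohort (means -0.05 and -0.16).

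The summed level of the 17 other mitochondrial β-oxidation genes had group medians of 636 CPM in AGA CON and 607 CPM in SGA CON piglets, and of 647 CPM in AGA HF and 606 CPM in SGA HF piglets. The ranges of the groups overlapped.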
